A study of Arabidopsis thaliana with 4 samples.

Results

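The enzymes that take chlorophyll apart were followed through fruit development in Arabidopsis thaliana, as the messenger RNA of 10 genes among the 30897 genes listed in the deposited values. The 10 genes were taken by their locus codes, from knowledge of the pathway, with earlier results of these data already known. They are SGR1 (AT4G22920), SGR2 (AT4G11910), SGRL (AT1G44000), PPH (AT5G13800), PAO (AT3G44880), NYC1 (AT4G13250), NOL (AT5G04900), HCAR (AT1G04620), RCCR (AT4G37000) and TIC55 (AT2G24820). All 10 had a value above 0 in every library.

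Chlorophyll b is first turned into chlorophyll a, by the reductases NYC1 and NOL and then by HCAR. SGR proteins remove the central magnesium of chlorophyll a, PPH cleaves off the phytol tail, PAO opens the ring, RCCR reduces the red product, and TIC55 adds a hydroxyl group before the colourless products are stored in the vacuole. In leaves the pathway runs during senescence. In Arabidopsis fruits the embryos are green in mid development and lose their chlorophyll as seeds mature, and the pod wall yellows late.

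Whole fruits (siliques, the pods with the seeds inside) of the accession Col-0, grown in long days with no other treatment or genotype named, were sampled in 4 age classes counted from flower opening (anthesis). Stage 1 covers days 0 to 5 and stage 2 covers days 6 to 10. Fruits of stage 3 were 11 to 15 days old, and those of stage 4 were 16 to 20 days old. These limits come from each library's stage label, and the growth protocol gives other days for some stages. Each stage was 1 library, so there is no replicate error and no test, and the differences below describe these 4 libraries. The number of fruits or plants behind a library is not given in the sources used here, and a whole fruit mixes pod wall, seed coat, endosperm and embryo, so that fewer cells of a type and less RNA per cell cannot be told apart.

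Values are FPKM, sequenced fragments scaled to transcript length and library size, for 29971 loci. If the values were not rescaled between libraries, the steps between the lowest of them give depths near 65900000, 102400000, 68000000 and 59000000 fragments for the libraries of stages 1 to 4. Factors that level the median ratio of loci between libraries were already 0.987 to 1.007, so these depths may be relative only. From those steps the fewest fragments behind a value of the 10 genes were 482, for SGR2 in stage 2. The 95% Poisson interval there ran from 4.21 to 5.04 FPKM. Such intervals cover counting error only and leave out the spread between fruits. Fruit markers of the pod wall and its margin were present in all 4 libraries, with FUL, a regulator of pod growth, at 60.2, 51.8, 37.0 and 38.7 FPKM in stages 1 to 4. As deposited, 0 of 5 such loci differed by 2-fold in any of the 4 comparisons below, where 5.52% to 22.6% of all loci did in a given direction. With FPKM sums set equal over all loci, their median difference in log2(FPKM + 1) was 1.51 in stage 2 against stage 1. It was -0.23 in stage 3 against stage 2, 0.71 in stage 4 against stage 3 and 2.15 in stage 4 against stage 1. The short locus AT2G01021 took 78.3% of the FPKM sum over all loci in stage 1 and 6.65% in stage 4.

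As deposited, 5 of the 10 genes were lowest in stage 2 and highest in stage 3. Under all 4 rescalings of the libraries SGR1, SGR2, PPH, PAO and NYC1 stayed higher in stage 3 than in stage 2, and SGR1 and SGR2 lower in stage 2 than in stage 1. SGR1, SGR2, PPH, PAO and NYC1, 5 of the 10 genes, had their lowest value in stage 2, and these 5 with NOL and TIC55 had their highest in stage 3. For PAO the counting intervals of stages 2 and 1 overlapped. HCAR and RCCR were highest in stage 4, and NOL, HCAR, RCCR and TIC55 were lowest in stage 1. SGRL alone was highest in stage 1 and lowest in stage 4. With FPKM sums set equal over all loci, all 8 genes that were lower in stage 4 than in stage 3 were higher there, and PPH, PAO and NYC1 were higher in stage 2 than in stage 1. With equal reference genes, SGR1 (0.07), NYC1 (0.01) and TIC55 (0.20) were also higher in stage 4 than in stage 3 on the log2(FPKM + 1) scale, and PAO (0.28) was higher in stage 2 than in stage 1. With short loci left out of the sums, PAO (0.43) and SGRL (0.14) were higher in stage 2 than in stage 1, and TIC55 (0.0022) was level between stages 4 and 3. The summed level of the 10 genes was 544 FPKM in stage 1, 333 FPKM in stage 2, 1114 FPKM in stage 3 and 925 FPKM in stage 4.

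**Figure D1:**
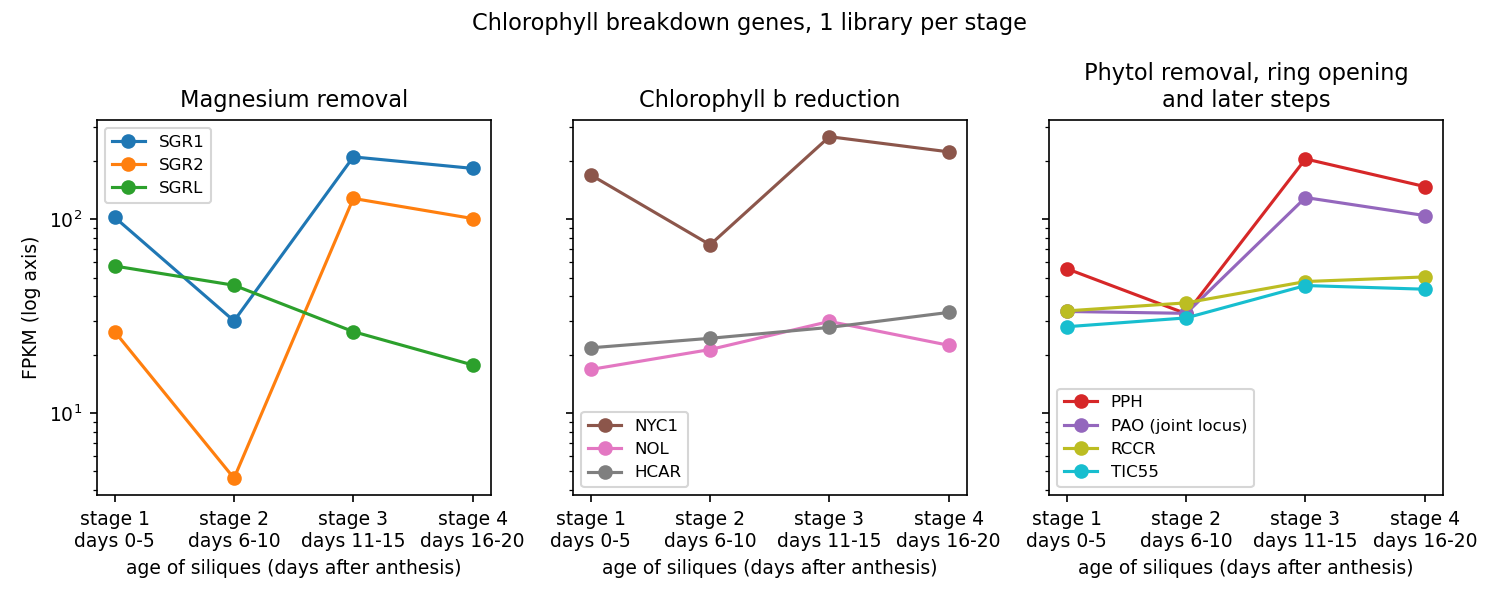
FPKM (log axis) of the 10 genes in the 4 stages (days after anthesis), 1 point per library, grouped by step; lines only join the points of a gene. In these deposited values SGR1, SGR2, NYC1 and PPH dip in stage 2 and peak in stage 3, and SGRL declines over all stages. NOL, HCAR, RCCR and TIC55 stay between 16.8 and 50.3 FPKM. With equal FPKM sums over all loci the stage 3 peak, the SGRL decline and the NYC1 and PPH dips do not hold. The short locus AT2G01021 makes up 78.3% of that sum in stage 1 and 6.65% in stage 4.

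The 3 genes of magnesium removal took different courses. SGR1 (chromosome 4, 12016525 to 12018492, minus strand), the main magnesium-dechelatase of leaf senescence, stood at 102, 29.9, 209.5 and 183 FPKM in stages 1 to 4. It was 7.02-fold higher in stage 3 than in stage 2. SGR2 (chromosome 4, 7156252 to 7158042, plus strand), its closest relative, stood at 26.3, 4.61, 128 and 101 FPKM and had the widest range of the 10 genes, 27.8-fold between stages 3 and 2. Among all loci it ranked 13219 in stage 2 and 1142 in stage 3, a measure that does not depend on how the libraries were scaled. SGRL (chromosome 1, 16708068 to 16709713, minus strand), a relative whose protein acts preferentially on chlorophyllide, the form without the phytol tail, stood at 57.3, 45.6, 26.3 and 17.7 FPKM. It was the lowest of the 10 genes in stages 3 and 4, while in stage 2 only NYC1 was higher.

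Reads of these relatives could be separated in principle. The coding sequences of SGR1 and SGR2 were identical at 79.6% of 783 aligned bases, with a longest identical run of 28 bases between the transcripts, against reads of 100 bases. SGRL was identical to SGR1 at 64.8% and to SGR2 at 61.9% of aligned bases. A further gene annotated as STAY-GREEN-like, AT4G11911, lies next to SGR2 (chromosome 4, 7158150 to 7159440). Its values were 0.0251, 0, 0.177 and 0.285 FPKM in stages 1 to 4, far under those of SGR2 in each library.

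Promoter sequence is shown for SGR2, the gene with the widest range, for PPH, which was also higher in stage 3 than in stage 2, and for SGRL, which as deposited was lowest in stage 4. Each run is the 250 bases before the annotated gene start, 5′ to 3′ on the gene's strand, from RefSeq (TAIR10.1). Capitals mark the core of the abscisic acid response element (ACGTG, either strand), the G-box (CACGTG, which holds that core on both strands) and the RY core (CATGCA, either strand), short words read by bZIP, bHLH and B3 factors of seed maturation.
SGR2 (chr4:7155900-7156149, plus strand): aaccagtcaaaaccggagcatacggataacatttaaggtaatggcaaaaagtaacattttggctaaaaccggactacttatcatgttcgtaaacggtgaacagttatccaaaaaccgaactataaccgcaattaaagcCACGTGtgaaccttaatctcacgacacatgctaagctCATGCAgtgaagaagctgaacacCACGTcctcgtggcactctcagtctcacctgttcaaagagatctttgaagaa
PPH (chr5:4454814-4455063, minus strand): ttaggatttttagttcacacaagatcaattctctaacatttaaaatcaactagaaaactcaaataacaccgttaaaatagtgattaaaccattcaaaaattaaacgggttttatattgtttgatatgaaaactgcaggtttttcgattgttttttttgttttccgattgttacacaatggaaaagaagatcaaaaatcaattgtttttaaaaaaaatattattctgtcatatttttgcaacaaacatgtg
SGRL (chr1:16709714-16709963, minus strand): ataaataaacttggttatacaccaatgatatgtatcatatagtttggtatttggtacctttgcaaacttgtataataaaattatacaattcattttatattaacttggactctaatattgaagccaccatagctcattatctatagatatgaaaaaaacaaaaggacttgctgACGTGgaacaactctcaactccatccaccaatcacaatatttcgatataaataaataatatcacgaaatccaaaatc
The SGR2 window held a G-box 112 to 107 bases before the start, a further ACGTG core at 52 to 48 bases and an RY core at 75 to 70 bases. SGRL held 1 ACGTG core, 77 to 73 bases before the start, and PPH held none of these words. Of the 10 windows 3 held ACGTG (SGR2, SGRL and NOL), 2 held CACGTG (SGR2 and NOL) and 1 held CATGCA (SGR2). Of the window of NOL 246 bases lie in the gene AT5G04895, and all 250 bases of that of PAO lie in AT3G44870. Over the windows of 27443 protein-coding genes the shares were 22.9%, 6.49% and 8.43%. The window of SGR1 held none and is not printed, since 65 of its bases lie in the neighbouring gene PYR4. A word in a window is a description of the sequence, and its absence says only that these letters are not there.

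Phytol removal and ring opening were, like SGR1, higher in stage 3 than in stage 2. PPH (chromosome 5, 4451837 to 4454623, minus strand), the pheophytinase, stood at 55.5, 32.5, 205 and 147 FPKM in stages 1 to 4, and was 6.29-fold higher in stage 3 than in stage 2. PAO, the oxygenase that opens the ring, stood at 33.4, 32.7, 129 and 104 FPKM. It was 3.96-fold higher in stage 3 than in stage 2, while its counting intervals of 31.9 to 33.5 FPKM in stage 2 and 32.4 to 34.5 FPKM in stage 1 overlapped. The PAO value is a joint one: the deposited locus (chromosome 3, 16382219 to 16386312, plus strand) also holds AT3G44870, a methyltransferase gene, and the parts of the 2 genes cannot be told apart. The counting intervals of PAO were worked out with the transcript length of PAO alone. PPH and PAO had the most alike courses of the 5 genes lowest in stage 2 and highest in stage 3. The root mean square difference of their centred log2(FPKM + 1) profiles over the 4 libraries was 0.28, against 0.38 between SGR1 and PPH and 0.40 between SGR1 and NYC1.

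Of the 3 genes of chlorophyll b reduction, NYC1 was at least 2-fold lower in stage 2 against stage 1 and higher in stage 3 against stage 2, and NOL and HCAR passed that limit in neither. NYC1 (chromosome 4, 7684156 to 7686876, minus strand) was the most abundant of the 10 genes in every library, at 169, 73.8, 266 and 222 FPKM in stages 1 to 4. NOL (chromosome 5, 1434774 to 1437330, plus strand), the partner reductase, stood at 16.8, 21.3, 29.7 and 22.4 FPKM. HCAR (chromosome 1, 1282741 to 1286584, minus strand), which completes the conversion to chlorophyll a, stood at 21.7, 24.3, 27.6 and 33.0 FPKM. HCAR had a larger value in each later library as deposited, but with short loci left out of equal FPKM sums it differed by -0.22 in stage 3 against stage 2. The order of the 3 genes was NYC1, HCAR, NOL in stages 1, 2 and 4 and NYC1, NOL, HCAR in stage 3.

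The late steps, like NOL and HCAR, changed by less than 2-fold between any libraries as deposited. RCCR (chromosome 4, 17442612 to 17443855, plus strand), the red catabolite reductase known as ACD2 from its cell death mutant, stood at 33.6, 37.0, 47.7 and 50.3 FPKM in stages 1 to 4. TIC55 (chromosome 2, 10574979 to 10576938, plus strand) stood at 27.9, 31.0, 45.5 and 43.5 FPKM. Both were at their lowest in stage 1, and the values of stages 4 and 3 had overlapping counting intervals in both genes. The highest over the lowest library was 1.77-fold for NOL, 1.63-fold for TIC55 and 1.52-fold for HCAR, and RCCR had the smallest range of the 10 genes. The locus of TIC55 overlaps genes on the other strand by up to 480 of 1960 bases, and the library kit does not mark strand, so some of its fragments may belong to them.

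In stage 2 against stage 1, 3 of the 10 genes were at least 2-fold lower and 0 were higher. The rule for counting a gene was a difference of 1 or more in log2(FPKM + 1), with 1 FPKM or more in the higher library. Of 17988 loci compared 15.3% were lower and 11.8% higher by this rule. SGR2 had the largest difference, -2.28 on the log2(FPKM + 1) scale, with 4.61 FPKM in stage 2 against 26.3 FPKM in stage 1. SGR1 differed by -1.74, with 29.9 FPKM in stage 2 against 102 FPKM in stage 1, and NYC1 by -1.19, with 73.8 FPKM in stage 2 against 169 FPKM in stage 1. PPH, at 32.5 FPKM in stage 2 against 55.5 FPKM in stage 1, stayed inside the limit at -0.75, and NOL, HCAR, RCCR and TIC55 differed by 0.13 to 0.32. The median over the 10 genes was -0.18, against 0.00 over all loci. Without NYC1 the count was 2 with libraries set to equal reference genes or to equal FPKM sums over loci of 300 bases or more. With equal sums over all loci 1 gene, SGR2, was lower, SGR1 stood at -0.52 and NYC1 at 0.05, and 5 of the 10 genes were higher.

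Markers of pollen and of senescence differed in the same comparison. All 4 pollen markers were lower in stage 2, their sum being 12.8 FPKM in stage 2 against 397 FPKM in stage 1. Of 7 senescence markers 4 were lower and 1, SEN1, was higher, at 52.0 FPKM in stage 2 against 12.1 FPKM in stage 1. The sum of the 7 was 127 FPKM in stage 2 against 980 FPKM in stage 1. SAG12, a protease gene used as a marker of senescence, made up most of the senescence sum in stage 1, with 4.48 FPKM in stage 2 against 719 FPKM in stage 1. No marker of these 2 lists was listed at 0 in either library. Their part in the lower values of SGR1, SGR2 and NYC1 was not tested.

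In stage 3 against stage 2, 5 of the 10 genes were at least 2-fold higher and 0 lower, where 13.1% of 17533 loci were higher and 11.9% lower. The differences were 4.52 for SGR2, 2.77 for SGR1, 2.62 for PPH, 1.95 for PAO and 1.84 for NYC1. The difference of SGR2 exceeded that of 99.3% of the loci compared, and that of NYC1, the smallest of the 5, exceeded 94.3%. SGRL differed by -0.77, with 26.3 FPKM in stage 3 against 45.6 FPKM in stage 2. NOL, HCAR, RCCR and TIC55 differed by 0.18 to 0.54. The median over the 10 genes was 1.19, against -0.01 over all loci. The same 5 genes were at least 2-fold higher under each of the 4 rescalings of the libraries and at the other pseudocounts tried. Of 8 seed maturation markers 7 were higher and 1, LEC1, lower in the same comparison, with a sum of 57358 FPKM in stage 3 against 1230 FPKM in stage 2. Of the senescence markers 3 of 7 were higher and 1 lower, with a sum of 593 FPKM in stage 3 against 127 FPKM in stage 2. No marker of these 2 lists was listed at 0 in either library, and their part in the higher values was not tested.

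In stage 4 against stage 3, 0 of the 10 genes passed the limit in either direction, where 5.52% of 16961 loci were higher and 6.42% lower. Of the 10 genes 8 had a smaller value in stage 4, with differences of -0.06 for TIC55 to -0.55 for SGRL, but with equal FPKM sums over all loci these 8 differed by 0.25 for SGRL to 0.76 for TIC55. HCAR (0.25) and RCCR (0.08) had a larger value in stage 4. PPH stood at 147 FPKM in stage 4 against 205 FPKM in stage 3. In stage 4 against stage 1, 3 genes were higher and 1 lower, where 20.7% of 17802 loci were higher and 22.6% lower. SGR2 differed by 1.90, PAO by 1.61 and PPH by 1.39, while SGRL differed by -1.64, with 17.7 FPKM in stage 4 against 57.3 FPKM in stage 1. SGR1 (0.83) and NYC1 (0.39) stayed inside the limit in this comparison. With equal reference genes 7 of the 10 were higher. The comparisons share libraries and are not independent of each other.

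**Figure D2:**
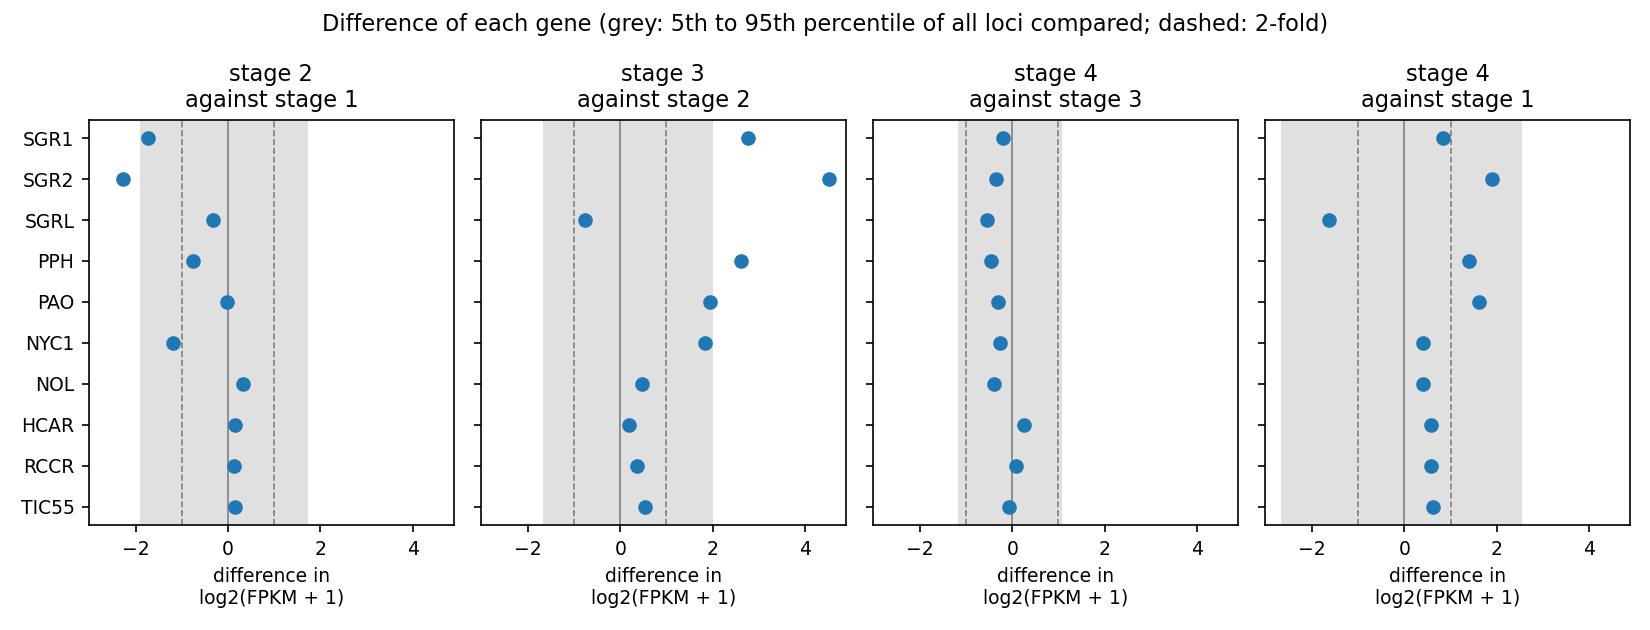
Difference in log2(FPKM + 1) of each of the 10 genes (points) in the 4 comparisons, later minus earlier stage; grey bands span the 5th to 95th percentile of all loci compared and dashed lines mark 2-fold. SGR1, SGR2 and PPH lie beyond the band in stage 3 against stage 2, where PAO (1.95) and NYC1 (1.84) lie just inside its edge at 1.98, and in stage 4 against stage 3 all 10 points lie within the dashed lines.

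Ratios and shares within a library do not depend on how libraries were scaled to each other. Magnesium removal made up 34.2%, 24.1%, 32.6% and 32.6% of the summed FPKM of the 10 genes in stages 1 to 4. PPH made up 10.2%, 9.78%, 18.4% and 15.9%. RCCR and TIC55 had their largest shares in stage 2, 11.1% and 9.31%, and shares of 4.28% and 4.08% in stage 3. Within magnesium removal SGR1 over SGR2 was 3.89, 6.48, 1.64 and 1.81 in stages 1 to 4, largest in stage 2 and smallest in stage 3. NYC1 over NOL was 10.1, 3.47, 8.97 and 9.95, and PAO over RCCR was 0.993, 0.883, 2.71 and 2.07. HCAR over NYC1 was 0.128, 0.329, 0.104 and 0.149, and was largest in stage 2.

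**Figure D3:**
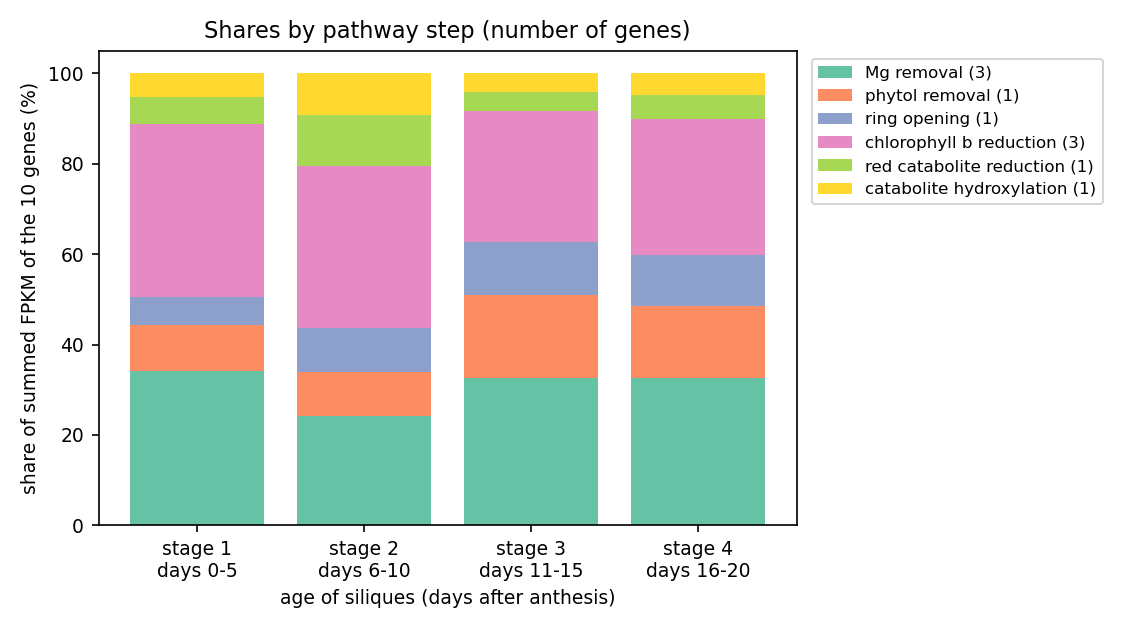
Share (%) of each pathway step in the summed FPKM of the 10 genes, by stage (days after anthesis), 1 library per bar. Phytol removal (PPH) widens to 18.4% in stage 3 while red catabolite reduction (RCCR) narrows to 4.28%.

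**Figure D4:**
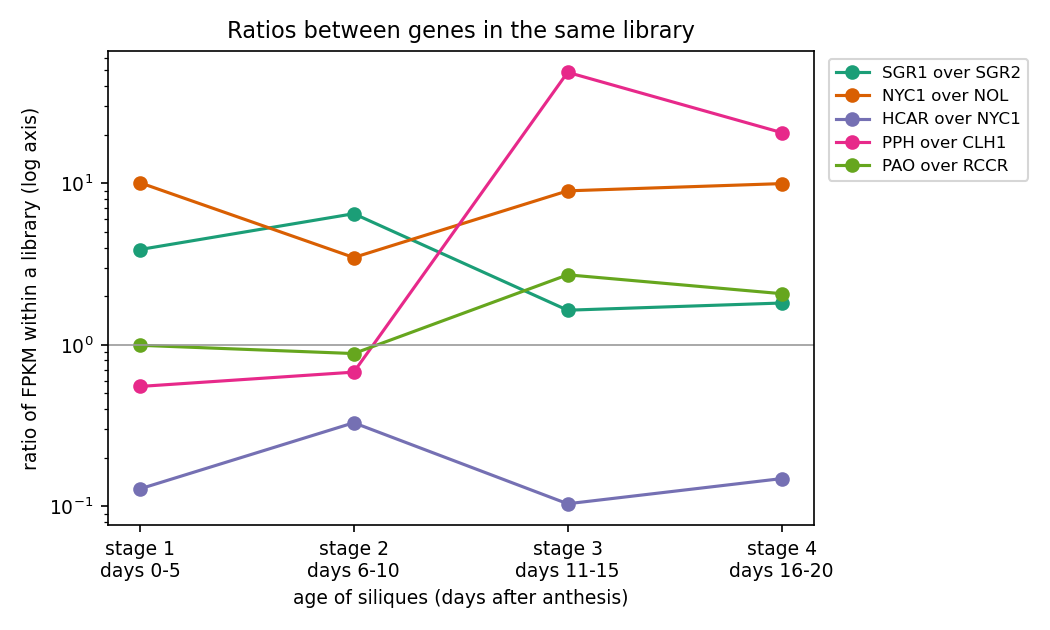
Ratio of FPKM between pairs of genes within each library (log axis) by stage, 1 point per library; the grey line marks equal levels. PPH over CLH1 stands at 0.552 in stage 1 and 0.677 in stage 2, and at 48.6 in stage 3 and 20.6 in stage 4.

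Against CLH1, a chlorophyllase and so a different class of phytol-removing enzyme, PPH was lower in stages 1 and 2 and higher in stages 3 and 4. CLH1 stood at 100.4, 48.0, 4.21 and 7.15 FPKM in stages 1 to 4, so that PPH over CLH1 was 0.552, 0.677, 48.6 and 20.6. CLH2, the other chlorophyllase, was low, at 0.896, 3.49, 10.4 and 15.0 FPKM, and was at least 2-fold higher in stage 2 against stage 1 and in stage 3 against stage 2. Enzymes that modify the colourless products were also highest in stage 3 as deposited: CYP89A9, a cytochrome P450 acting on fluorescent catabolites, stood at 56.7, 88.8, 281 and 158 FPKM, and MES16, an esterase that demethylates them, at 80.7, 47.1, 144 and 131 FPKM. AT5G38520, annotated as a hydrolase, stood at 38.1, 35.5, 35.8 and 18.1 FPKM, and AT2G35260, annotated as a CAAX protease self-immunity protein, at 111, 152, 87.0 and 48.8 FPKM. Of these 6 genes 3 were higher and 1 lower in stage 3 against stage 2 (median 0.68), and 1 was higher and 1 lower in stage 2 against stage 1 (median 0.18). None passed the limit in stage 4 against stage 3 (median -0.48), and 2 were higher and 3 lower in stage 4 against stage 1 (median -0.17). Over all loci 13.1% were higher and 11.9% lower in stage 3 against stage 2, and 11.8% and 15.3% in stage 2 against stage 1. For stage 4 these shares were 5.52% and 6.42% against stage 3, and 20.7% and 22.6% against stage 1.

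Of 22 genes of chlorophyll synthesis 9 were at least 2-fold lower and 0 higher in stage 3 against stage 2 (median -0.73), and 13 did not pass the limit. In stage 4 against stage 1, 17 were lower and 0 higher (median -1.97, but 0.16 with equal FPKM sums over all loci). In stage 2 against stage 1, 4 were lower and 2 higher (median -0.27), and in stage 4 against stage 3, 3 of 21 were lower (median -0.58). The shares of all loci that were lower were 11.9% in stage 3 against stage 2 and 22.6% in stage 4 against stage 1. They were 15.3% in stage 2 against stage 1, where 11.8% were higher, and 6.42% in stage 4 against stage 3. PORB, a light-dependent protochlorophyllide reductase, stood at 546, 379, 135 and 74.9 FPKM in stages 1 to 4, and HEMA1, which begins the pathway, at 64.2, 171, 72.5 and 48.7 FPKM. CAO, which makes the chlorophyll b that NYC1 and NOL turn back, was picked after its values were seen and stood at 19.3, 43.0, 44.2 and 21.5 FPKM. The summed level of the 22 synthesis genes over that of the 10 breakdown genes was 5.43, 7.22, 1.15 and 0.813 in stages 1 to 4.

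The light-harvesting proteins that hold most chlorophyll b also had lower messenger levels late. In stage 3 against stage 2, 7 of 16 loci were lower and 0 higher (median -0.86), and in stage 4 against stage 3 again 7 were lower and 0 higher (median -0.94). In stage 4 against stage 1, 12 of 15 were lower (median -1.85, but 0.29 with equal FPKM sums over all loci), and in stage 2 against stage 1, 2 were higher and 1 lower (median -0.12). Among all loci 11.9%, 6.42% and 22.6% were lower in stage 3 against 2, 4 against 3 and 4 against 1. In stage 2 against stage 1 these shares were 11.8% higher and 15.3% lower. LHCB5 stood at 2536, 1986, 905 and 475 FPKM in stages 1 to 4. Copies of LHCB1 are near-identical and LHCB2.1 shares a locus with LHCB2.2, so their values are uncertain, and LHCB1.3 was listed at 0 in stage 1.

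A list of 23 regulators linked to loss or keeping of green colour did not separate genes that promote the loss from genes that oppose it. Of these 23, 10 were higher and 1 lower in stage 3 against stage 2 (median 0.85). EEL, a bZIP factor of seed maturation, stood at 1.17, 22.1, 260 and 331 FPKM in stages 1 to 4. ABI3, a B3 factor whose mutants keep green seeds, stood at 0.0255, 7.82, 74.1 and 81.1 FPKM. Unlike these, NAC055, a NAC factor of the jasmonate and abscisic acid responses, shared the low of SGR1 and SGR2 in stage 2, at 68.5, 7.69, 119 and 156 FPKM, and ORE1, a NAC factor of leaf senescence, stood at 14.5, 7.49, 54.1 and 18.5 FPKM. In stage 2 against stage 1, 4 of the 23 were higher and 5 lower (median 0.22). In stage 4 against stage 3, 0 were higher and 3 lower (median 0.13), and in stage 4 against stage 1, 8 were higher and 2 lower (median 0.64). Over all loci 13.1% were higher and 11.9% lower in stage 3 against stage 2, and 11.8% and 15.3% in stage 2 against stage 1. For stage 4 these shares were 5.52% and 6.42% against stage 3, and 20.7% and 22.6% against stage 1.

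**Figure D5:**
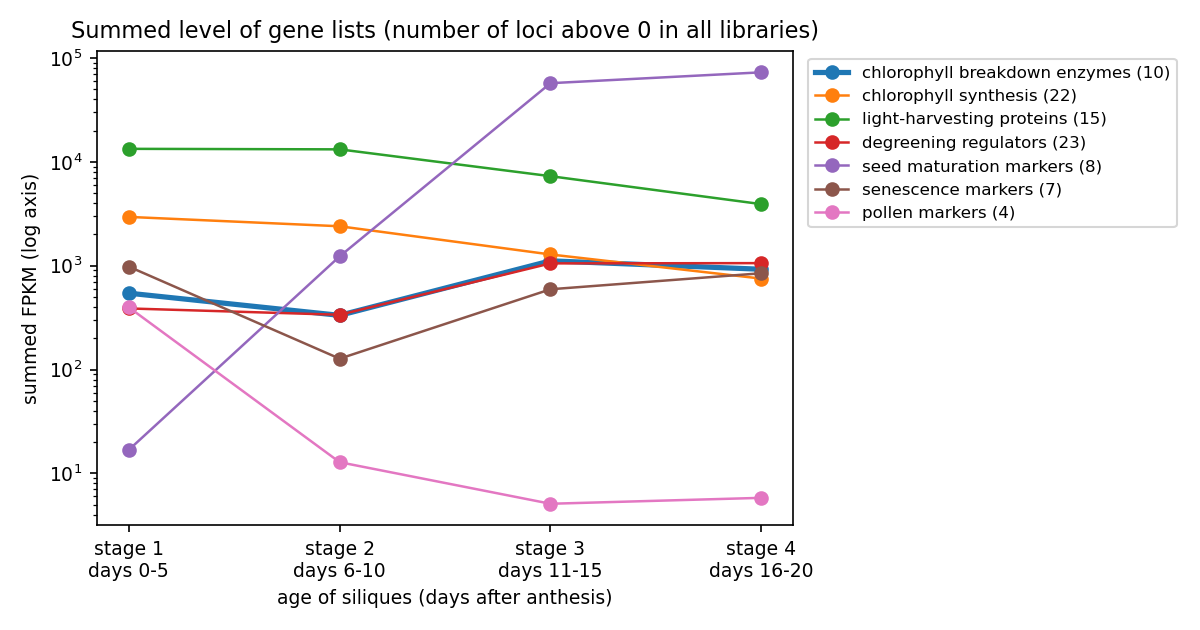
Summed FPKM (log axis) of gene lists by stage (days after anthesis), over loci above 0 in all 4 libraries, with their number in the key. The breakdown list (thick line) goes through 333 FPKM in stage 2 and 1114 FPKM in stage 3, while the synthesis list, as deposited, is lower at each later stage, at 752 FPKM in stage 4.

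By the likeness of courses, each of the 10 genes was set against 11908 loci of 1 gene with at least 10 FPKM in 1 library and no value of 0. The measure was the root mean square difference of log2(FPKM + 1) over the 4 libraries, each gene centred on its own mean. A profile of 4 points can be alike in many genes. Nearest to SGR1 was ABCG8 (0.07), a transporter gene, followed by bZIP1 (0.12), and nearest to SGR2 was FAR4 (0.16), a fatty acyl reductase gene with 3.97, 0.182, 18.9 and 16.7 FPKM in stages 1 to 4. AT1G10690, annotated as a cyclin-dependent kinase inhibitor, was nearest to PPH (0.08), AT3G61930 to PAO (0.04) and AT2G24040 to NYC1 (0.04). For the genes that changed little the nearest were closer still, as PRT1 to NOL (0.02), AT5G46620 to HCAR (0.02), UBP5 to RCCR (0.02) and FIB to TIC55 (0.01). AT2G35430 was nearest to SGRL (0.03), which as deposited had a smaller value in each later library.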

How the data were processed

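The authors deposited FPKM per Cufflinks locus, repeated for each gene assigned to it; per the submitters' processing notes TopHat, Cufflinks, Cuffdiff and TAIR10 were used. Tool versions are not given in the sources used here. Per the labels' protocols, DNase-treated total RNA went into TruSeq V2 libraries, which do not mark strand, read from both ends for 100 cycles. The 4 libraries were grouped by stage label. Rows were reduced to 29971 loci, of which 29153 hold 1 gene.

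FPKM values are not counts and each stage is 1 library, so no test was run. Values listed at exactly 0 were left out of counts and medians, since a 0 can be a failed estimate. Differences are on the log2(FPKM + 1) scale, which understates changes of low genes. The counting rule was tried on simulated data that held counting error only, so the trial says nothing of the spread between fruits. Members, lists and limits were chosen with earlier results of these data known. Of 122 entries in 11 other lists, 9 were not analysed here. All 10 members are named; other lists are given by counts, with up to 4 named genes of high level or large difference (CAO was added after its values were seen), and the list of other breakdown enzymes in full.

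Fragment numbers came from 2531 loci of more than 1500 bases. FPKM times length less 180 bases lay within 0.2 of a whole number for 69.0% to 78.0% of the values under 3.5 fragments, where even spread gives 40%. The step was chosen on these values, so the share is no independent check, and prior scaling between libraries would make the depth relative. RefSeq genes of TAIR10.1 overlapped 28729 of 28733 single-gene loci found by identifier. Alternatives were other pseudocounts, FPKM minimums, a 4-fold limit, 4 rescalings and values of 0 included. Tables were handled with pandas 2.3.3 and numpy 2.4.6 under Python 3.11.15, intervals with SciPy 1.17.1, and plots with matplotlib 3.10.9.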

Additional observations from a re-analysis of the deposited data

How the results depend on the processing

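The 5 genes at least 2-fold higher in stage 3 against stage 2 were the same under all pseudocounts and rescalings tried, and 3 of them passed a 4-fold limit. With that limit 1 gene was lower in stage 2 against stage 1, and 0 were higher and 0 lower in stage 4 against stage 1. Equal FPKM sums over all loci, in which the short locus AT2G01021 took 78.3% of the sum in stage 1 and 6.65% in stage 4, moved the median of all loci by 1.06, 0.14, 0.76 and 1.94 in stage 2 against 1, 3 against 2, 4 against 3 and 4 against 1. Then 5 genes were higher and 1 lower in stage 2 against stage 1, 1 was higher in stage 4 against stage 3, and 9 were higher and 0 lower in stage 4 against stage 1. The difference of NYC1 in stage 2 against stage 1 turned to 0.0505, all 8 negative differences in stage 4 against stage 3 turned positive, and, in stage 4 against stage 1, that of SGRL to 0.53, the synthesis median to 0.16 and the light-harvesting median to 0.29. Setting the sums equal over loci from 300 bases up put 1 gene, SGRL, lower in stage 3 against stage 2 (medians of all loci 0.42, -0.39, 0.05 and 0.12 in the 4 comparisons). Equal reference genes put 7 higher in stage 4 against stage 1 (medians 0.29, -0.07, 0.24 and 0.50). Of the 8 reference genes 2, ACT2 (-2.09) and ACT8 (-1.56), were themselves lower in that comparison as deposited. The share of higher loci among those past the limit was 92.2%, 60.5%, 91.8% and 93.8% when all loci were summed, 70.3%, 31.7%, 50.5% and 52.8% when short loci were left out, and 62.3%, 49.4%, 65.2% and 68.3% with equal reference genes. Relative to the median of all loci, SGR1 stayed between -1.74 and -1.58 in stage 2 against stage 1 and NYC1 between -1.19 and -1.01 over the deposited and rescaled values. Subtracting that median takes out any factor common to a library, so these narrow ranges follow from the measure and are no check on the scaling. The other 69 of 80 alternative counts of the 10 genes stayed within 1.5 times. This tally says little, since the counts under other FPKM minimums or with values of 0 included could not move. No gene of the 10 had a value of 0, and all lay above the minimums in the higher library. No paired analysis was possible because each stage is 1 library. If the depths inferred from the steps between low values hold, counting error limits little here. The widest counting interval of the 10 genes then ran from 4.21 to 5.04 FPKM (SGR2 in stage 2). The spread between fruits of an age was not measured.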

Other observations

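Phytol set free from chlorophyll can be reused for tocopherol (vitamin E), and genes of that route did not move as 1 group. VTE1, the tocopherol cyclase, stood at 12.3, 31.1, 140.1 and 130 FPKM in stages 1 to 4, with differences of 1.27 in stage 2 against stage 1 and 2.14 in stage 3 against stage 2. PES1, a phytyl ester synthase, stood at 50.8, 19.9, 35.2 and 26.4 FPKM and, like SGR1, was lowest in stage 2. VTE5, the phytol kinase, stood at 35.9, 38.0, 57.2 and 33.7 FPKM, and VTE3, a methyltransferase, at 339, 186, 179 and 117 FPKM. Of 7 genes 2 were higher and 0 lower in stage 3 against stage 2 (median 0.58), and 1 was higher and 2 lower in stage 2 against stage 1 (median -0.77). In stage 4, 0 passed the limit against stage 3 (median -0.13), and 2 were higher and 1 lower against stage 1 (median -0.09). Over all loci 13.1% were higher and 11.9% lower in stage 3 against stage 2, and 11.8% and 15.3% in stage 2 against stage 1. For stage 4 these shares were 5.52% and 6.42% against stage 3, and 20.7% and 22.6% against stage 1.

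Seed coat markers had a different course from the breakdown genes. Their 6 genes summed to 168, 873, 565 and 349 FPKM in stages 1 to 4. In stage 2 against stage 1, 5 were higher, where 11.8% of all loci were. In stage 3 against stage 2, 1 was higher and 3 lower, where 13.1% of all loci were higher and 11.9% lower. The senescence markers were not uniform late, as SAG12 stood at 192 FPKM in stage 4 against 719 FPKM in stage 1, and SAG13 at 261 FPKM in stage 4 against 34.5 FPKM in stage 1. In stage 4 against stage 3, 2 of the 7 senescence markers were higher and 0 lower, where 5.52% of all loci were higher and 6.42% lower.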
